A study of Mus musculus and Homo sapiens with 14 samples.

Results

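The mouse plasmacytoma line labelled MPC-11 was infected with Cas9 and a vector that either carried a guide for Irf4 or was empty, and RNA of the 2 states was compared. Its members were the 4 mouse count columns that carry the line's name, 2 with the guide and 2 with the empty vector, out of 14 libraries in the series. Of 26221 table entries with a gene symbol, 12957 had a count in these libraries and 10670 passed the filter on low counts and were tested. All 4 libraries came from cells infected with Cas9, given doxycycline, and collected by sorting on day 3; they differ in the guide. The labels call the genotype Irf4 -/- with the guide and WT with the empty vector, but the cells are an infected and sorted population. They also give C57BL/6 as strain, and they do not say whether the empty vector carried a guide with another target, whether the line was 1 clone, or whether the 2 libraries of a group came from separate cultures. The p-values below therefore measure the spread between these samples, which may be technical. For comparison the human myeloma line MM.1S was handled in the same way (2 libraries with the IRF4 guide, 2 with the empty vector). Splenic donor plasma cells labelled Irf4 flox/- or flox/+ (2 libraries each) came from marrow grafted into host mice together with uMT marrow, were given tamoxifen and were harvested on day 14. A single library each of wild-type follicular B cells from spleen and of bone marrow plasma cells served as reference.

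IRF4 is a transcription factor of B lymphocytes. At high level it drives the step from B cell to antibody-secreting plasma cell, together with BLIMP-1 (gene Prdm1) and XBP1, and myeloma cells are known to depend on it. It binds DNA mostly with a partner, either an ETS factor such as PU.1 or an AP-1 factor such as BATF, and at high level it can also bind interferon-type elements alone. A plasma cell secretes antibody at a very high rate, so its endoplasmic reticulum (ER) is filled with chaperones, glycosylation enzymes and the translocation channel.

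The 4 libraries held 18738283 to 22979517 counts and differed widely within a group. The median absolute log2 difference between replicates was 0.58 with the empty vector and 0.45 with the guide, against 0.38 between the 2 group means. In empty vector library 2 immunoglobulin genes took 16.7% of the counts, against 29.7% to 32.8% of the others. Its scaling factor was 1.215 against 0.913 to 0.952. Guide library 2 had the largest share of the ribosomal RNA precursor Rn45s, 2.84% against 0.445% to 1.56%. It also had the fewest genes with a count, 11158 against 11444 to 11599. Mitochondrially encoded genes took 0.56% of empty vector library 1 and 1.05% to 1.40% of the others. The part of these differences in the values below was not tested. Some genes were also missing from 1 library only. In 41 genes 1 empty vector library had 0 counts while its replicate had at least 100, and the same held for 88 genes between the guide libraries. The zeros lay in empty vector library 1 for 32 genes and in library 2 for 9. They lay in guide library 1 for 20 genes and in library 2 for 68. Levels are given as CPM, counts relative to the scaled library total, with scaling within these 4 libraries, in the order library 1, library 2.

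Markers of the plasma cell state were mixed. Sdc1, the surface marker CD138, stood at 694 and 671 CPM with the empty vector, Xbp1 at 2699.9 and 2622 and Jchain, the joining chain of IgA and IgM, at 12087 and 8918. Pax5, Bach2, Bcl6, Ciita, Irf8 and Cd79a, genes expressed in B cells, had 0 counts in all 4 libraries. Other B cell genes were expressed. Of 50 B cell identity genes 25 passed the filter, Cd79b, Blnk and Ccr7 among them. The tested ones summed to 2548 and 2660 CPM with the empty vector. Mzb1, an ER cofactor of immunoglobulin folding, stood at 2.22 and 0.776 CPM with the empty vector and at 3.13 and 5.45 with the guide. The immunoglobulin genes went against the line's name. The MPC-11 line is known as a producer of IgG2b with a kappa light chain, derived from a BALB/c mouse. Here Ighg2b, the IgG2b heavy chain, had 22 and 5 counts with the empty vector and 0 and 1 with the guide. By counting error alone, the 0 in guide library 1 allows up to 1.31e-05% of its counts. Ighg2b made up 6.49% of the counts of the bone marrow plasma cell library, so the row does record the gene. Igkc, the kappa constant region, took 0.0667%, 0.0535%, 0.0398% and 0.0423%. The lambda constant gene Iglc1 took 17.3% and 7.99% with the empty vector and 16.4% and 15.7% with the guide, and Igha, the IgA heavy chain, 0.499% and 0.644% against 0.617% and 0.596%. The libraries are therefore called the line labelled MPC-11, and the name is used below only in that sense.

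Defining markers of most other cell types were at or near 0. Of 16 T cell markers 12 had 0 counts in every library, with a summed level of at most 1.58 CPM, and of 10 NK cell markers 9 did. Sums of red cell and neutrophil markers reached 9.79 and 4.33 CPM. Stromal markers summed to 4.44 to 43.6 CPM, with 11 of 13 at 0, and naive B cell markers to 65.1 to 167 CPM, of which Ccr7 had a mean of 95.0. Of 18 macrophage markers 12 were at 0, Lyz2 among them, and the sum of 1661 to 2287 CPM held Cd68 with a mean of 1870 CPM, a lysosomal protein that is not limited to macrophages.

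Irf4 itself was lower with the guide but did not pass the test. The gene (Entrez 16364; chromosome 13, 30749233 to 30766981 in mm10) stood at 467 and 496 CPM with the empty vector and at 276 and 146 with the guide. Both guide libraries lay below both controls, library 2 further than library 1, and Irf4 RNA was still present in both. The log2 fold change was -1.19 ± 0.37 (SE, n = 2 in each group), with an adjusted p = 0.592 in edgeR and 0.0762 in DESeq2. Without guide library 2 it was -0.80 and without guide library 1 -1.72. A count per gene does not show which transcripts carried a frameshift, and protein was not measured.

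With edgeR's quasi-likelihood test, 2 of 10670 genes rose at an adjusted p under 0.05 (0.0187%) and 0 fell (0%). Before adjustment, p was under 0.05 for 372 higher genes (3.49%) and 273 lower ones (2.56%), where 534 in all would pass if no gene differed. DESeq2 called 110 genes higher (1.03%) and 49 lower (0.459%). Both guide libraries lay above both controls in 1805 genes (16.9%) and below in 1765 (16.5%), and 48.5% of genes had a fold change above 0. The smallest adjusted p among lower genes was 0.0766.

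**Figure D1:**
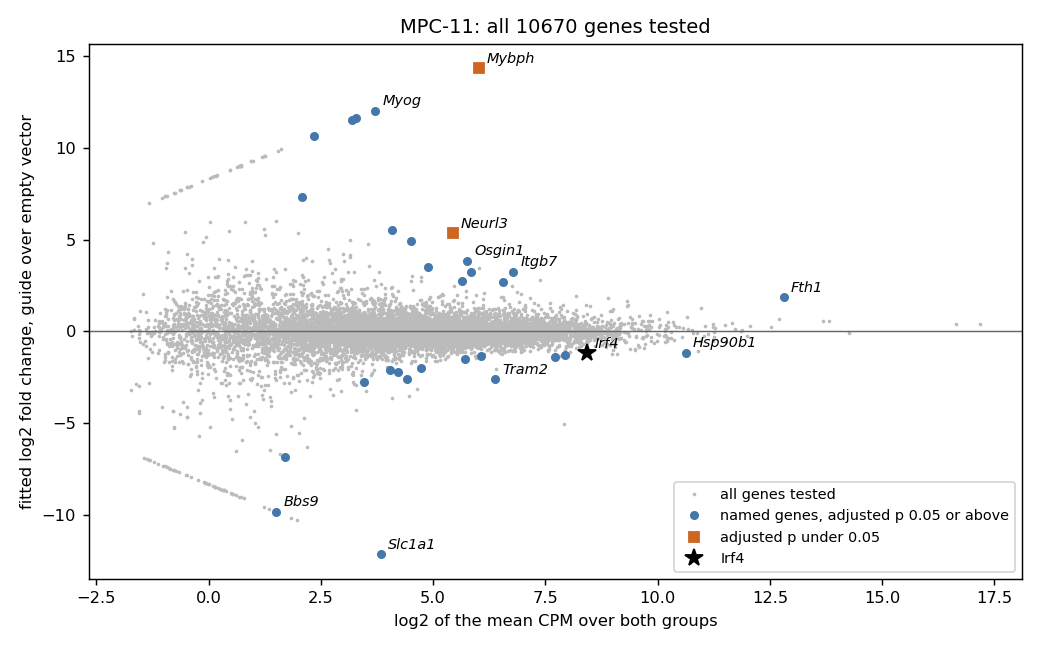
Fitted log2 fold change of guide over empty vector (y axis) against the log2 of the mean CPM (x axis) for the 10670 genes tested in the 4 libraries; squares passed the adjusted test, circles are the other named genes and the star is Irf4. Mybph and Neurl3 stand clear of the cloud, and the slanted lines of points at the top and bottom left are genes with 0 counts in one group, whose fitted fold depends on the prior count.

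The genes that rose were Mybph and Neurl3. Mybph (Entrez 53311; chromosome 1, 134193418 to 134201237), a myosin-binding protein of skeletal muscle, had 0 counts in both control libraries and 1906 and 3075 counts, which is 87.8 and 173 CPM, with the guide. That is at least 1714-fold higher, taking 3 counts over the control group as the floor (edgeR adjusted p = 0.0271). The floor covers counting error only, so this and later "at least" values do not allow for the spread between replicates. Neurl3 (Entrez 214854; chromosome 1, 36264602 to 36274674), a ubiquitin ligase of the Neuralized group also known as LINCR, stood at 1.76 and 2.33 CPM against 77.0 and 93.0 with the guide (change on the log2 scale 5.37 ± 0.44 SE, with adjusted p = 0.0271 in edgeR). The groups were far apart in both genes. In splenic flox/- against flox/+ plasma cells Neurl3 had a log2 fold change of 3.00 ± 0.53 (SE). Both calls ended with libraries scaled by their size alone (adjusted p = 0.1625 for each) and with limma on the log2 FPKM values (adjusted p = 0.05498 for Mybph and 0.06087 for Neurl3). Neurl3 also lost its call without empty vector library 1 (adjusted p = 0.06435), and Mybph with the spread shared over 4 mouse groups (adjusted p = 0.08209).

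Mybph and Myog lie close together on chromosome 1. Myog (Entrez 17928; chromosome 1, 134290004 to 134292548), the muscle transcription factor myogenin, starts 96.6 kb from Mybph and also had 0 counts in both controls, against 12.9 and 39.6 CPM in the guide libraries, at least 339-fold higher (adjusted p = 0.122 in edgeR). Other genes within 150 kb behaved differently from each other. Adora1, an adenosine receptor gene that overlaps Mybph, had 0 counts in all 4 libraries, and Chil1 had 0, 0, 4 and 23. Ppfia4, just beyond Myog, had 43 and 52 counts with the empty vector and 205 and 32 with the guide, so its groups overlapped. Btg2, an antiproliferative gene on the far side of Mybph, stood at 233 and 210.3 CPM against 380.2 and 339 (change on the log2 scale 0.70 ± 0.28 SE, with adjusted p = 0.804 in edgeR).

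**Figure D2:**
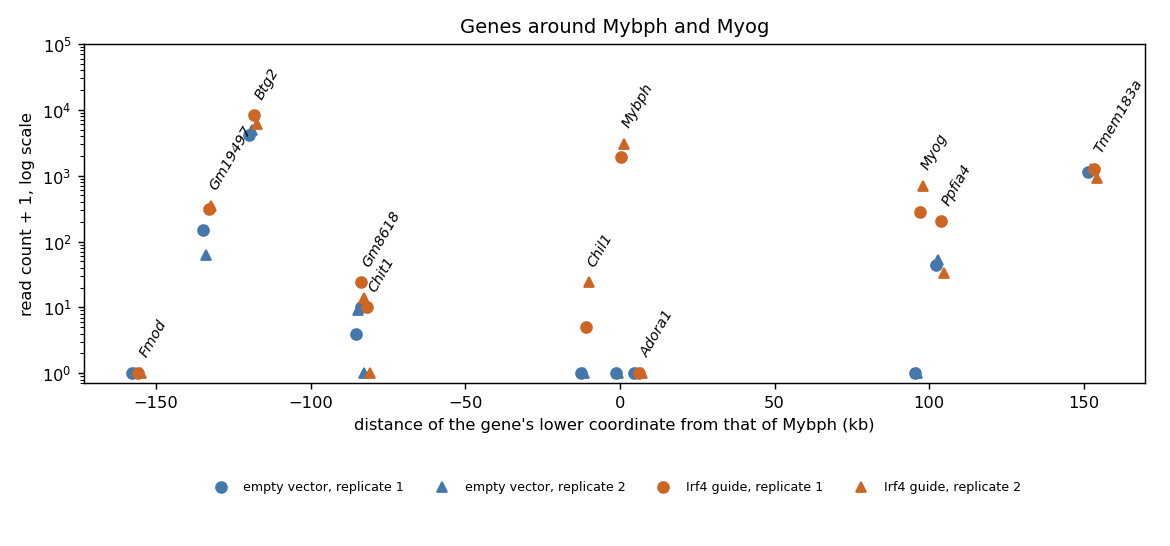
Read count plus 1 on a log axis (y) for each gene with a row in the count table within 150 kb of Mybph, by the distance of its lower coordinate from that of Mybph in kb (x), in the 4 libraries. Mybph and Myog sit at 0 counts in both empty vector libraries and at 281 to 3075 counts with the guide, while Tmem183a and Btg2 are expressed in every library.

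The stretch just before Mybph is shown because this gene had the largest difference; it comes from RefSeq (GRCm38.p6, plus strand, chr1:134193198-134193417, 5′ to 3′) and ends where the gene begins, with CAGCTG in capitals, the E-box form that myogenic factors such as myogenin are known to bind.
Mybph: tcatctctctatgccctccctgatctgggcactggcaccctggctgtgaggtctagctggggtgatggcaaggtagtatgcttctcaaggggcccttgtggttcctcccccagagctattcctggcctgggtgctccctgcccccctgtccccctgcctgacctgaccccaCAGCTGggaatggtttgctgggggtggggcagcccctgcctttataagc
Of 8331 tested genes with a RefSeq promoter of 300 bases, 16.9% held CAGCTG, a palindrome that reads the same on both strands, so a match is common. In the 12 higher genes named below it occurred in 2 of 10 promoters, those of Mybph and Hrc.

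In 6 genes (0.0562%) the empty vector libraries held at most 3 counts in all while both guide libraries reached 5 CPM. Beside Mybph and Myog these were Itih5, Trim63, Rapgef3 and Psd2. Trim63, the muscle ubiquitin ligase MuRF1, had 0 counts in the controls and 14.3 and 22.3 CPM in the guide libraries, at least 243-fold higher (adjusted p = 0.0931 in edgeR). Itih5, a hyaluronan-binding serum protein gene, went from 0 counts to 14.7 and 24.5 CPM (at least 259.9-fold higher; adjusted p = 0.0931). Rapgef3, the cAMP sensor EPAC1, was at 0 counts against 5.21 and 15.1 CPM (at least 131-fold higher; adjusted p = 0.248). The reverse held in 3 genes (0.0281%), Slc1a1, Bbs9 and Zfp473. Slc1a1 (Entrez 20510; chromosome 19, 28835135 to 28913960), a transporter of glutamate and aspartate, stood at 31.4 and 25.9 CPM in the controls and at 0 counts in both guide libraries, at least 372-fold lower (adjusted p = 0.0766 in edgeR). Bbs9, a subunit of the ciliary BBSome, stood at 5.804 and 5.604 CPM against 0 counts (at least 74.9-fold lower; adjusted p = 0.317). None of these passed in edgeR except Mybph. Mybph, Slc1a1, Bbs9, Rapgef3 and Psd2 overlap other annotated genes, and strand use in counting is not given, so those counts are uncertain. The gene that overlaps Mybph, Adora1, had 0 counts in all 4 libraries. The 41 and 88 genes above, absent from a single library of a pair, were counted by another rule, 0 counts against at least 100. By that rule applied to both libraries of each group, 5 genes were absent with the empty vector and 3 with the guide. The 5 were Itih5, Mybph, Myog, Rapgef3 and Trim63. The 3 were Bbs9, Slc1a1 and Pidd1, a member of the p53 target list. Between 1 empty vector and 1 guide library, 59 to 128 genes had 0 counts in one and at least 100 in the other.

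Skeletal muscle genes did not appear as a whole. Of 38 markers of that tissue 18 had 0 counts in all 4 libraries, and 8 of the 11 tested were higher. The median log2 fold change was 0.43, but it ran from -0.06 without guide library 2 to 1.93 without empty vector library 2. Of the 11 markers tested, 2 had groups separated upwards, beside 16.9% of all genes. Their summed level was 507 and 837 CPM with the empty vector and 1061 and 1028 with the guide over the tested members, most of it Mef2c, a factor that B cells express too, at 406 and 765 against 889 and 693 CPM. Outside that list, Hrc, a calcium-binding protein of the muscle sarcoplasmic reticulum, stood at 11.2 and 14.4 CPM against 109 and 66.2. The part of muscle RNA or muscle-like cells in these values was not tested.

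The 12 higher and 12 lower genes with the smallest p at a mean of at least 10 CPM were chosen by their p in these same 4 libraries. That choice favours separated groups and DESeq2 calls, so neither is further evidence. The groups were separated in all 24, beside 16.9% of all genes upwards and 16.5% downwards. DESeq2 called all 24, beside 1.03% of all genes higher and 0.459% lower, but only Mybph and Neurl3 passed in edgeR. Adjusted p reached 0.195 in the higher 12 and 0.498 in the lower 12. Itgb7, the integrin beta 7 chain that steers lymphocytes to gut and marrow, stood at 17.8 and 23.6 CPM against 237 and 161 with the guide (change on the log2 scale 3.26 ± 0.37 SE, with adjusted p = 0.0798 in edgeR). Fth1, the ferritin heavy chain that stores iron, stood at 3136 and 2995 CPM against 11046 and 11504 (1.88 ± 0.26; adjusted p = 0.154). Replicates of Fth1 lay close together in both groups; processed copies of the gene in the genome make its counts uncertain. Osgin1, an oxidative stress response gene, stood at 6.15 and 7.93 CPM against 126 and 77.8, and Tmem173, the DNA-sensing adaptor STING, at 29.5 and 20.5 against 119 and 205. Smad1, a transducer of BMP signals, stood at 1.08 and 1.72 CPM against 22.8 and 65.3. Uba7, the activating enzyme for the ubiquitin-like ISG15, stood at 1.08 and 0.388 CPM against 48.3 and 18.1. Arhgap8, which encodes a GTPase-activating protein, stood at 4.95 and 4.61 CPM against 54.8 and 53.2.

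Gimap6 lies in a cluster of related GTPase genes of lymphocytes on chromosome 6. It stood at 11.78 and 10.002 CPM against 114 and 92.8 with the guide (change on the log2 scale 3.25 ± 0.37 SE, with adjusted p = 0.0798 in edgeR). Its neighbours were looked at after this value was seen. Gimap7 stood at 33.3 and 11.9 CPM against 82.4 and 86.5, Gimap9 at 13.4 and 5.99 against 18.6 and 25.7, and Gimap1 at 32.5 and 18.8 against 62.8 and 35.1. Gimap5 was separated only narrowly, at 4.21 and 6.21 CPM against 13.7 and 6.97. Gimap4, also in the cluster, had 27 and 72 counts against 41 and 33, so its groups overlapped. Gimap3 had 2 and 1 counts against 30 and 0, and Gimap8 had 0 and 0 against 44 and 0. Neither was separated. Members of this family are similar in sequence, and how reads that match several of them were counted is not given in the sources used here.

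**Figure D3:**
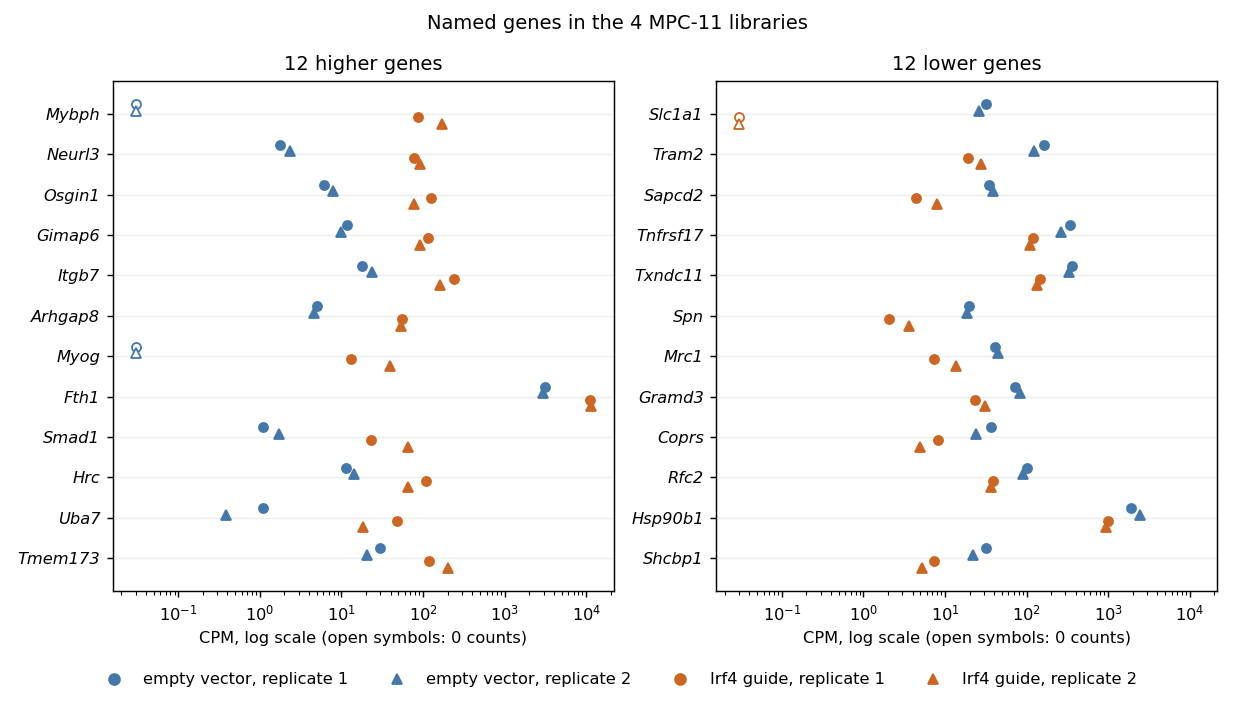
CPM on a log axis (x) of the 12 higher and 12 lower named genes (y) in the 4 libraries, with circles for library 1 and triangles for library 2 of each group and open symbols for 0 counts. The empty vector and guide libraries do not overlap in any of the 24 genes, which were chosen for their small p.

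Among the lower genes, Tram2, which works at the translocation channel of the ER, stood at 164 and 122 CPM against 19.4 and 27.7 with the guide (change on the log2 scale -2.60 ± 0.37 SE, with adjusted p = 0.158 in edgeR). Tnfrsf17, the receptor BCMA that carries survival signals to plasma cells, stood at 345 and 264 CPM against 120.0 and 109 (-1.41 ± 0.30; adjusted p = 0.449). Txndc11, an ER thioredoxin, stood at 364 and 329 CPM against 146 and 134. Spn, the sialoprotein CD43, stood at 19.6 and 18.8 CPM against 2.07 and 3.60. The mannose receptor gene Mrc1, a member of the macrophage marker list above, stood at 40.7 and 44.4 CPM against 7.28 and 13.8. Sapcd2 and Shcbp1, which act at the spindle and in cell division, stood at 35.0 and 38.6 against 4.38 and 8.04 and at 31.9 and 21.8 against 7.28 and 5.17. Coprs, a cofactor of the arginine methyltransferase PRMT5, stood at 36.9 and 24.3 CPM against 8.20 and 4.95, and Gramd3 at 71.8 and 82.2 against 23.3 and 31.0. Outside the naming rule and chosen after its values were seen, Cyp2b10, a cytochrome P450 gene, stood at 486 and 459 CPM against 28.1 and 0 (change on the log2 scale -5.07 ± 1.67 SE, with adjusted p = 0.615 in edgeR and 0.948 in DESeq2). Its guide libraries differed by 609 counts against 0. In the single reference libraries, 10 of the 12 lower genes had a lower CPM in follicular B cells than in bone marrow plasma cells, against 13.4% of all genes tested. Of the 12 higher genes 7 had a higher CPM in follicular B cells, against 82.7% of all genes. These reference values are scaled to library size, where immunoglobulin takes a large share of the plasma cell library.

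Genes of protein folding in the ER were mostly lower with the guide, and none passed in edgeR. The list of ER chaperones and of the unfolded protein response had 41 members tested, 34 lower and 7 higher; its median log2 fold change was -0.52 beside -0.02 over all genes. In 24 of them both guide libraries lay below both controls (16.5% of all genes did), and DESeq2 called 6 lower (0.459% of all genes). Hspa5, the main ER chaperone BiP, stood at 2964 and 2204 CPM against 1256 and 1219. Hsp90b1, the chaperone GRP94, stood at 1908 and 2456 CPM against 996 and 944 (change on the log2 scale -1.17 ± 0.28 SE, with adjusted p = 0.498 in edgeR). Creld2, an ER disulphide isomerase, stood at 871 and 537 CPM against 319 and 289, and Manf, a secreted ER stress protein, at 189.9 and 144 against 81.4 and 82.3. Dnajb11, a cochaperone of BiP, stood at 147 and 149 CPM against 71.8 in both guide libraries. Ern1, the ER stress sensor IRE1 that splices Xbp1 mRNA, stood at 274 and 229.9 CPM against 121 and 126. The transcription factor Xbp1 itself stood at 2699.9 and 2622 CPM against 2215 and 2165 (-0.28 ± 0.26; adjusted p = 1.00). The groups were separated in each of these genes.

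Promoters of 3 of these chaperone genes are shown because XBP1 and ATF6 are known to act through the ER stress element. The 250 bases before the start of Hspa5 (chr2:34771840-34772089, plus strand), Hsp90b1 (chr10:86705445-86705694, minus strand) and Creld2 (chr15:88819396-88819645, plus strand) come from RefSeq, build GRCm38.p6, on the gene's strand from 5′ to 3′, with the fixed letters of each match to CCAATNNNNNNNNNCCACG on either strand in capitals.
Hspa5: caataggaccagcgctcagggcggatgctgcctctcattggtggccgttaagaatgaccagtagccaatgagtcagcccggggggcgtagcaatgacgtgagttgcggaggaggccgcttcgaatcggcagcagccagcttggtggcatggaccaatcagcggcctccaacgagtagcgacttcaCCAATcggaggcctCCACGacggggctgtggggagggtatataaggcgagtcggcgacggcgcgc
Hsp90b1: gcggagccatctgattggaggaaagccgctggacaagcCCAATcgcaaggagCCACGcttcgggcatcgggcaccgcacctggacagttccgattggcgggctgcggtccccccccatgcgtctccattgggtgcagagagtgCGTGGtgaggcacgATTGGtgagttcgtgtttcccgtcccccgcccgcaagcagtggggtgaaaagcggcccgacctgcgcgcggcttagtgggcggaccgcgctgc
Creld2: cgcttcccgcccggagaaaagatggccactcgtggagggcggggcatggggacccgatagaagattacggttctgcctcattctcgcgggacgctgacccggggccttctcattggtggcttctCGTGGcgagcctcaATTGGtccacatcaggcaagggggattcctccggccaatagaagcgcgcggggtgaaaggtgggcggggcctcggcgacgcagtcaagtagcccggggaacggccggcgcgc
Hsp90b1 held 2 matches, 1 on each strand. The element occurred in 10 of 35 list genes with a RefSeq promoter (28.6%), and in 18 of 8331 tested genes (0.216%). The other list genes with it were Calr, Canx, Derl3, Dnajc3, Ero1lb, Pdia6 and Syvn1. The interferon-type letters GAAANNGAAA occurred in 1 of the 35 (2.86%) and in 3.52% of all, and the ETS-IRF letters GGAANNGAAA in 2 (5.71%) and in 2.80% of all, each searched on both strands. A match describes these letters and no binding was measured. The letters come from the reference genome, and the list was made of genes of ER folding and the unfolded protein response. These shares therefore do not bear on the effect of the guide.

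The translocation and glycosylation machinery leaned the same way. Of 58 genes tested for ER translocation, N-glycosylation and vesicle transport, 49 were lower and 9 higher (median -0.40), and 27 were separated downwards and 2 upwards, beside 16.5% and 16.9% of all genes. Rpn1 and Rpn2, subunits of the oligosaccharyltransferase, stood at 1005 and 897 against 579.6 and 562 CPM and at 1042 and 962 against 583 and 508. Spcs1, a subunit of the signal peptidase, stood at 206 and 136 CPM against 77.0 and 88.2 (change on the log2 scale -1.05 ± 0.33 SE, with adjusted p = 0.595 in edgeR). No member of this list passed in edgeR or DESeq2. Both lists kept a median below 0 in each of 13 alternatives, from -0.69 to -0.48 for chaperones and from -0.56 to -0.28 for translocation. The immunoglobulin share of the guide libraries, 29.7% and 30.5%, lay within the 16.7% to 32.8% of the controls. Its part in these values was not tested.

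Genes of DNA replication and mitosis were also mostly lower. Of 47 DNA replication genes 45 were lower (median -0.77) with 31 separated downwards, and of 50 mitosis and spindle genes 45 were lower (median -0.70) with 30 separated downwards, beside 16.5% of all genes. None passed in edgeR, and DESeq2 called 1 and 2 of them lower, beside 0.459% of all genes. Rfc2, a subunit of the clamp loader, stood at 102 and 89.6 CPM against 39.1 and 36.9 with the guide. Mcm6, part of the replicative helicase, stood at 139 and 168 CPM against 62.5 and 85.5, and Cdc45, which activates it, at 52.9 and 52.4 against 17.5 and 25.8. Ccne1, cyclin E1, stood at 31.7 and 67.9 CPM against 17.4 and 14.7. In mitosis Cdc20, an activator of the anaphase-promoting complex, stood at 374 and 355 CPM against 141 and 189 (change on the log2 scale -1.15 ± 0.30 SE, with adjusted p = 0.528 in edgeR). Kif20a, a kinesin of cytokinesis, stood at 78.0 and 119.7 CPM against 43.8 and 40.9. Mki67, the proliferation marker Ki-67, did not share the pattern, with 26.1 and 91.2 CPM against 72.1 and 52.2. The cell cycle inhibitor Cdkn1a (p21) stood at 233 and 198 CPM against 373 and 383 (0.81 ± 0.28; adjusted p = 0.657). Over the 13 alternatives the medians stayed between -0.98 and -0.66 for replication and between -0.98 and -0.52 for mitosis.

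**Figure D4:**
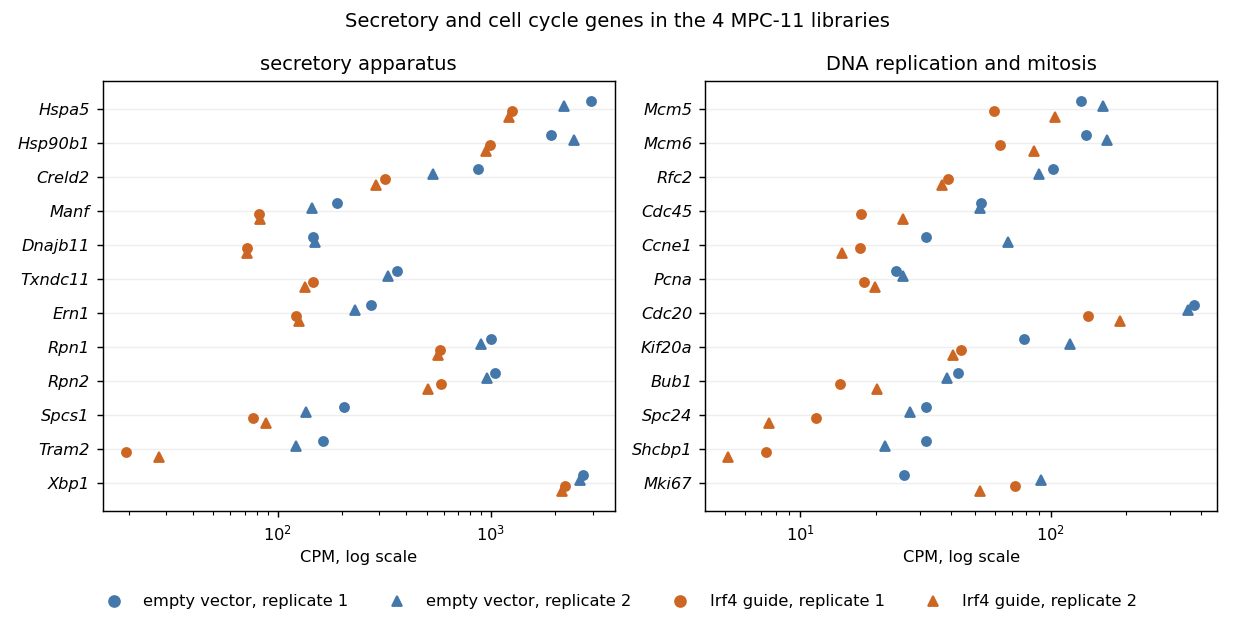
CPM on a log axis (x) of 12 secretory genes and 12 replication and mitosis genes (y) in the 4 libraries, with symbols for group and library. Guide libraries lie to the left of both controls in 23 of the 24 genes. Mki67 is the exception, and Xbp1 and Pcna are separated only narrowly. The 24 were picked for display, most of them from genes named for a small p. Over the full lists the same held for 24 of 41 chaperone genes and 27 of 58 translocation genes. It also held for 31 of 47 replication genes and 30 of 50 mitosis genes, beside 16.5% of all genes.

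Respiratory genes of the nucleus and of the mitochondrion went different ways in the main fit, though both medians depended on single libraries. Of 75 nuclear oxidative phosphorylation genes 68 were lower (median -0.39), and 18 were separated downwards and 1 upwards, beside 16.5% and 16.9% of all genes. The median was -0.04 without empty vector library 1. All 13 mitochondrially encoded genes tested were higher (median 0.69), with 2 of the 13 separated upwards, near the 16.9% of all genes; this median ranged from 0.07 without guide library 2 to 1.22 without empty vector library 2. COX1, a subunit of cytochrome oxidase, stood at 4097 and 6145 CPM against 7585 and 8650.1, and COX3 at 297 and 685 against 665 and 1037. The groups were separated in COX1 and overlapped in COX3, and in both the control libraries lay well apart from each other. On the authors' log2 FPKM values the log2 fold change of COX1 was -0.22. None of the 2 lists' genes passed in edgeR or DESeq2. Proteasome genes were lower in 30 of 36 (median -0.25) and cytosolic ribosomal proteins in 41 of 55 (median -0.17), and both medians turned above 0 without empty vector library 1 (0.02115 and 0.23); the ribosomal median was also 0.19 without guide library 1.

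Regulators of the plasma cell state were spread in both directions. Among 33 plasma cell transcription regulators 19 were higher and 14 lower. Prdm1 stood at 278 and 476 CPM against 431 and 347, and Myc at 1329.5 and 3328 against 2850.3 and 2358, with overlapping groups in both. Ell2, an elongation factor that favours secreted immunoglobulin mRNA, stood at 85.1 and 92.6 CPM against 53.1 and 50.7. The surface gene Sdc1 stood at 694 and 671 CPM against 383 and 296 with the guide (change on the log2 scale -1.01 ± 0.29 SE, with adjusted p = 0.549 in edgeR and 0.0313 in DESeq2). Slamf7, another plasma cell surface receptor, stood at 129 and 107 CPM against 273 and 200.1, and Jchain at 12087 and 8918 against 17224 and 14222. So Sdc1 and Tnfrsf17 had lower values and Slamf7 and Jchain higher ones, and none of the 4 passed in edgeR.

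Most tested members of the IRF family other than Irf4 had higher values with the guide, and none passed in edgeR. Of 11 family genes tested, cofactors included, 9 were higher (median 0.55), and the 2 lower ones were Irf4 and Irf7. Irf7, an inducer of type I interferon, stood at 19.1 and 12.4 CPM against 10.2 and 11.2, so its groups were separated downwards. Irf1, an activator of interferon-type promoters, stood at 82.6 and 68.9 CPM against 219 and 163, and Irf2, its relative, at 30.04 and 25.3 against 70.0 and 76.1. The corepressor Irf2bp2 stood at 132 and 145 CPM against 375 and 273 (change on the log2 scale 1.22 ± 0.31 SE, with adjusted p = 0.498 in edgeR and 0.0148 in DESeq2). DESeq2 called 3 family genes higher (1.03% of all genes) and edgeR 0. At an unadjusted p under 0.05, 5 were higher and 1, Irf4, lower, beside 3.49% and 2.56% of all genes. Interferon response genes were not uniform, with 24 of 37 higher (median 0.28). Ddx58, the RNA sensor RIG-I, stood at 2.33 and 9.48 CPM against 48.4 and 30.3, while Ifit1 stood at 36.3 and 40.1 against 17.4 and 13.9.

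Most B cell genes that could be tested had higher values, although many could not be tested and some were lower. Of 50 B cell identity genes 25 passed the filter, and 21 of these were higher (median 0.50; 0.04 on the authors' log2 FPKM values and 0.76 without empty vector library 2). Of the 25 tested, 14 had groups separated upwards and 3 downwards, beside 16.9% and 16.5% of all genes. Id3, an inhibitor of E proteins, stood at 1.37 and 1.25 CPM against 9.35 and 14.96. Cd79b, which pairs with CD79A under the B cell receptor, stood at 438 and 274 CPM against 913 and 926 (change on the log2 scale 1.37 ± 0.33 SE, with adjusted p = 0.498 in edgeR). Those separated downwards were Ccr7, Blnk and Tcf3. Ccr7, the receptor that guides lymphocytes to lymph nodes, stood at 165 and 85.3 CPM against 60.5 and 69.0. Blnk, the B cell linker protein, stood at 386 and 697 CPM against 292 and 368. Cd74, the invariant chain of MHC class II, stood at 1185 and 1199 CPM against 2250.4 and 1816. Pax5, Bach2 and Bcl6 had 0 counts with the guide as well.

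Signalling and adhesion genes also had more higher than lower values. Of 23 adhesion and migration genes tested 19 were higher (median 0.32; 0.04 on the log2 FPKM values); DESeq2 called 5 higher and 1 lower, beside 1.03% and 0.459% of all genes. Coro1a, an actin regulator of leukocytes, stood at 157 and 99.2 CPM against 362 and 333, and Rac2, a GTPase of blood cells, at 270.1 and 348 against 695 and 653. Sema4d, the semaphorin CD100, stood at 2.79 and 5.22 CPM against 18.3 and 26.4. Cd44, the hyaluronan receptor, stood at 3.87 and 2.24 CPM against 0 counts in both guide libraries, at least 38.7-fold lower (adjusted p = 0.498 in edgeR). In the NF-kB list 16 of 25 were higher (median 0.38). Malt1, a paracaspase that acts upstream of NF-kB, stood at 8.02 and 19.1 CPM against 47.2 and 46.8. Ltb, lymphotoxin beta, stood at 127 and 72.4 CPM against 241 and 338, and the inhibitor Nfkbia at 283 and 272 against 459 and 443. Nfkbie, another inhibitor, stood at 27.3 and 22.5 CPM against 5.99 and 7.20. Of 18 immediate early genes tested 16 were higher (median 0.65; 0.14 on the log2 FPKM values and 1.02 without empty vector library 2). Txnip, a glucose-responsive inhibitor of thioredoxin, stood at 139 and 103 CPM against 547 and 373 (change on the log2 scale 1.93 ± 0.34 SE, with adjusted p = 0.289 in edgeR). Jund and Junb, AP-1 subunits, stood at 271 and 379.8 against 626 and 764 CPM and at 201 and 187 against 425 and 326. None of these genes passed in edgeR.

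In the list of Notch genes and ubiquitin ligases of the Neuralized group, which holds Neurl3, 16 of 19 genes tested were higher (median 0.36). Glycolysis genes were higher in 17 of 22 (median 0.21), p53 targets in 15 of 25 (median 0.22), and histone and chromatin regulators in 21 of 31 (median 0.23). Cholesterol and fatty acid synthesis genes were higher in 17 of 31 (median 0.04), as were 22 of 39 lysosome and autophagy genes (median 0.07) and 23 of 39 MYC and ribosome biogenesis genes (median 0.06). Except for Neurl3, edgeR called none of their members. Without empty vector library 1 the p53 median was 0.56 and the histone and chromatin median -0.08, and without library 2 the latter was 0.83 and the Notch median 1.38. Over the alternatives tried the cholesterol, lysosome and MYC medians ran from below to above 0, and the glycolysis median from 0.02 to 0.41.

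In the BCL2 family 7 of 14 genes were higher and 7 lower. Bmf, a death-promoting BH3-only gene, stood at 57.8 and 22.0 CPM against 176 and 112 (change on the log2 scale 1.85 ± 0.51 SE, with adjusted p = 0.528 in edgeR and 0.0259 in DESeq2). Bbc3, the BH3-only gene PUMA, stood at 71.8 and 71.0 CPM against 121 and 131, and the survival gene Mcl1 at 694 and 624 against 945 and 978. Serine synthesis genes Psat1 and Psph stood at 158 and 103 against 53.8 and 56.5 CPM and at 116 and 70.1 against 32.4 and 44.5. Their list, of amino acid and integrated stress response genes, had 18 of 40 higher and 22 lower (median -0.03), and Atf4, the main transcription factor of the integrated stress response, stood at 185 and 132 CPM against 111 and 101.

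Set beside MM.1S, the DNA replication list had a like median and the amino acid list did not. In MM.1S 45 of 47 replication genes were lower (median -0.84, and -0.77 in MPC-11), and Tnfrsf17 had log2 fold changes of -1.41 ± 0.30 (SE) in MPC-11 and -1.81 ± 0.25 in MM.1S. Amino acid and integrated stress genes were lower in 36 of 39 in MM.1S (median -0.69). ER chaperones had a median of -0.21 in MM.1S, with Hspa5 at -0.09 ± 0.21 against -1.06 ± 0.29 (SE) in MPC-11. The lists' medians were not tested against each other. The interaction test of edgeR over 11360 genes matched by symbol called 0 genes (0%) at an adjusted p under 0.05, with 712 at an unadjusted p under 0.05 where 568 are expected, and DESeq2 called 100. Itgb7 came near the threshold, at 3.26 ± 0.37 (SE) in MPC-11 and 0.05 ± 0.18 in MM.1S (difference 3.22 ± 0.39; adjusted p = 0.0538 in edgeR), as did Bbs9 at the same adjusted p. Fth1 differed by 2.05 ± 0.29 (adjusted p = 0.0816), Smad1 by 5.91 ± 0.78 (adjusted p = 0.0676) and Tmem173 by 5.24 ± 0.86 (adjusted p = 0.128). Of the 12 higher named genes 6 were tested in MM.1S, where 2 were higher and 4 lower, while all 8 tested of the 12 lower ones were lower there. Of all 8358 genes tested in both lines, 4091 (48.9%) were higher and 4267 lower in MM.1S. In splenic plasma cells 9 of the 12 higher genes were tested and 9 were higher, from 0.03 in Gimap6 to 3.00 in Neurl3 on the log2 scale, beside 51.5% of all genes, and 6 of 11 lower ones were lower. The same interaction test against splenic plasma cells called 0 of 12993 genes (0%), with 807 at an unadjusted p under 0.05 where 650 are expected, and DESeq2 called 182.

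**Figure D5:**
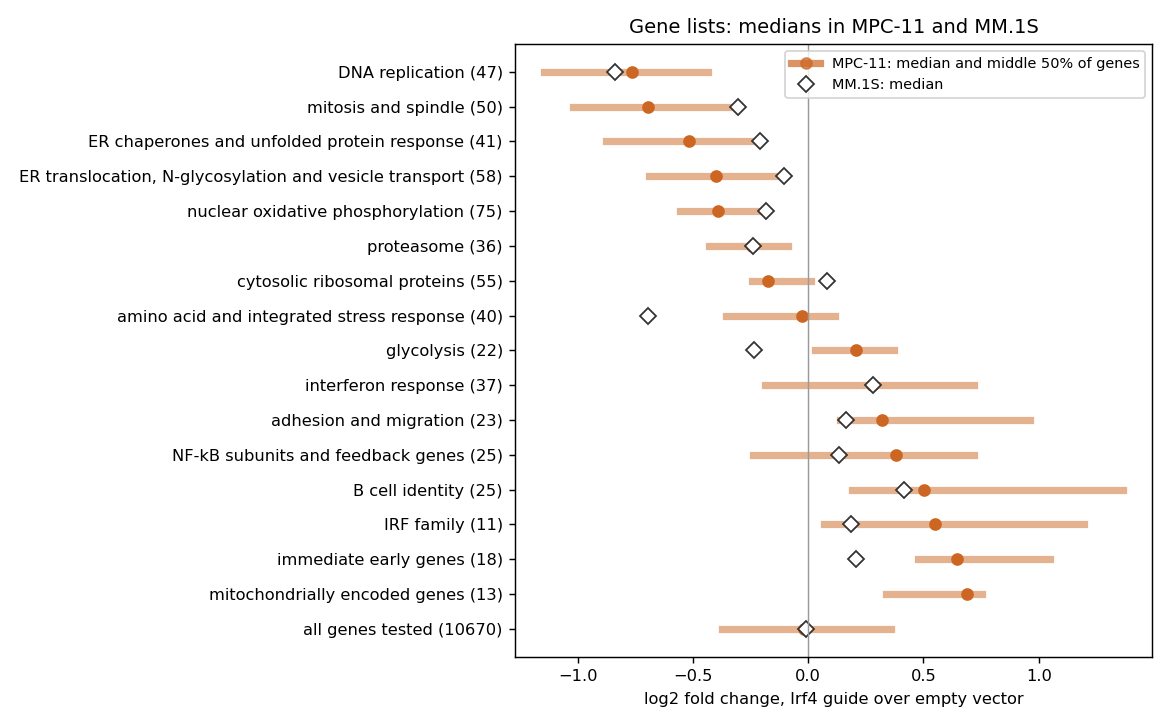
Median log2 fold change of guide over empty vector (x axis) for 16 gene lists and all genes tested (y axis, number of genes tested in MPC-11 in brackets); filled circles with bars show the MPC-11 median and middle 50% of genes, open diamonds the MM.1S median. Replication, mitosis and ER lists lie left of all genes in MPC-11, and the amino acid list lies near 0 in MPC-11 and at -0.69 in MM.1S.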

How the data were processed

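RNA of the line labelled MPC-11 was analysed from deposited tables; reads were not used here. Tools listed in the submitters' processing notes are featureCounts, limma and Subread 1.6.0, with build mm10; annotation, strand and filters are not given in the sources used here. The authors deposited counts, whole reads per gene without normalisation; entries without a symbol (at most 0.306% of a library) were left out. The authors also deposited log2 FPKM values, a log2 scale of fragments per gene length and depth; they served as an alternative only. Their highest value was identical in 2 libraries, and any normalisation between libraries is not given.

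The 2 guide and 2 empty vector libraries (18738283 to 22979517 counts) were fitted with edgeR 4.0.16 in R 4.3.3: TMM scaling, filterByExpr with minimum count 10, the quasi-likelihood test, 2 residual degrees of freedom, and p adjusted by Benjamini-Hochberg across the 10670 genes, threshold 0.05. SE is the log2 fold change divided by the root of F. DESeq2 1.42.0 and limma 3.58.1 were alternatives. Differences from MM.1S (symbols matched ignoring case) and splenic plasma cells were interaction contrasts. A group without counts was set at a floor of 3 counts over the group; floors cover counting error only. The edgeR step was run on simulated counts as a check of its code, and no power or error rate for these libraries is drawn from it. Coordinates and promoters are RefSeq's (GRCm38.p6, the assembly of mm10); 10550 of the genes matched.

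The comparison, its members and the 31 gene lists and 8 marker lists were chosen with earlier results of these data known. Named genes are Irf4, called genes, the 12 higher and 12 lower with the smallest p at a mean of at least 10 CPM without immunoglobulin, up to 8 in each direction with at most 3 counts in one group and at least 5 CPM in both libraries of the other, and key members plus up to 4 with the smallest p of each list.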

Additional observations from a re-analysis of the deposited data

How the results depend on the processing

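Genes called higher and lower went from 2 and 0 to 0 and 0 with library size alone, 110 and 49 with DESeq2, 27 and 5 with no filter on low counts, 2 and 1 with the spread shared over 4 mouse groups and 0 and 0 with limma on log2 FPKM. They stayed at 2 and 0 with median-of-ratios factors, a minimum count of 30 and without immunoglobulin genes. Leaving out 1 library gave 1 to 21 higher and 0 to 22 lower: 1 and 0 without empty vector library 1, 21 and 3 without library 2, 15 and 22 without guide library 1 and 16 and 9 without guide library 2; the lone library is then assumed to vary like the others. A replicate block gave 0 and 0, with adjusted p = 0.2224 for both Mybph and Neurl3 in edgeR; the numbers do not pair the samples by label, and same-numbered deviations correlated at -0.08 over genes. The replicate block with MM.1S also gave 0; none was run for splenic plasma cells, whose flox/+ columns carry no numbers.

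The MM.1S difference called 29 genes with no filter, 100 with DESeq2 and 0 to 34 without 1 library; the splenic one called 8, 182 and 0 to 1. Library size alone moved the median of all genes from -0.02 to -0.18; Mki67, Myc and Prdm1 then turned to -0.19, -0.08852 and -0.17. Over the fits without 1 library they ran from -0.55 to 1.27, -0.35 to 0.99 and -0.29 to 0.50, and the proteasome median from -0.45 to 0.02115. COX1 was -0.22 on log2 FPKM. Of the values of 104 genes under these alternatives, 1228 kept their direction and side of the threshold, 107 newly passed it, 8 lost it and 9 turned direction; of the list medians 394 moved little and 34 more. The cause was not tested. The 2 libraries in each group limit the precision.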
